A study of Homo sapiens with 6 samples.

Results

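2 of the 6 arrays in this series, empty-vector array 1 and GHSROS array 3, stood apart from the other 4 and are described here as a pair, with 1 array from each vector. They were picked from the expression values themselves, by their position on the first principal component of 18377 measured genes. Every difference between the pair and the other 4 arrays is therefore a description, given without a test. On the pair, genes of mitosis and DNA replication were lower, while targets of the stress factor ATF4, lysosomal genes and 4 of 13 cystatins were higher. The sources used here give no cell number or growth rate, so low proliferation is read from transcripts alone.

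The series measured RNA from MDA-MB231, an established cell line from a human breast cancer that is triple-negative, mesenchymal in character and mutant for p53. Cells were transfected with the pTargeT mammalian expression vector, either empty or carrying GHSROS, a long noncoding RNA from the strand opposite the ghrelin receptor gene. Each vector has 3 arrays, which the submitters call biological replicates, on Affymetrix Human Gene 1.0 arrays, and all cultures shared the same medium with calf serum. The sources used here do not state whether the transfection was stable, how dense the cultures were at harvest or whether they were grown in parallel.

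In dividing cells, E2F factors switch on the genes of DNA replication, and later the MuvB complex with B-MYB and FOXM1 switches on the genes of mitosis. When a cell stops dividing, repressive E2F and DREAM complexes hold both groups down. The integrated stress response acts in another way: a shortage of amino acids or another stress slows translation, the transcription factor ATF4 accumulates, and amino acid synthesis, amino acid uptake and tRNA charging genes are induced together with CHOP and its partners. Lysosomal genes are known to be induced by TFEB-type factors when nutrients are short.

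The first component held 64.4% of the variance. Empty-vector array 1 lay at -29.6 and GHSROS array 3 at -29.0 on it, in log2 units. Of the other 4, empty-vector array 2 was nearest at 4.0, followed by GHSROS array 2 at 13.8, GHSROS array 1 at 18.5 and empty-vector array 3 at 22.2. The gap between the pair and empty-vector array 2 was 63.7% of the whole range. Both vectors were thus on both sides of the gap. The gap was 63.4% of the range when the cell cycle, histone and stress lists, 315 genes in all, were left out of the component. So few of the 18377 genes could hardly move the component on which the pair was picked, so nothing further is read from this.

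Counted pairwise, 22 genes were at least 2-fold apart between the arrays of the pair, 1 with each vector. Between an array of the pair and any of the other 4, the count ran from 199 to 609, with a median of 419.5 over 8 such comparisons. Among the other 4 arrays it ran from 21 to 92. Outside the pair, empty-vector array 2 and GHSROS array 2 were 23 genes apart, and empty-vector array 3 and GHSROS array 1 were 21 genes apart. GHSROS arrays 1 and 2, of the same vector, were nearly as close, at 25 genes. Empty-vector arrays 2 and 3 were 92 genes apart. On the second component, with 15.6% of the variance, empty-vector array 2 (-15.2) and GHSROS array 2 (-12.4) were low together, while the pair lay at -0.55 and 7.46.

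**Figure D1:**
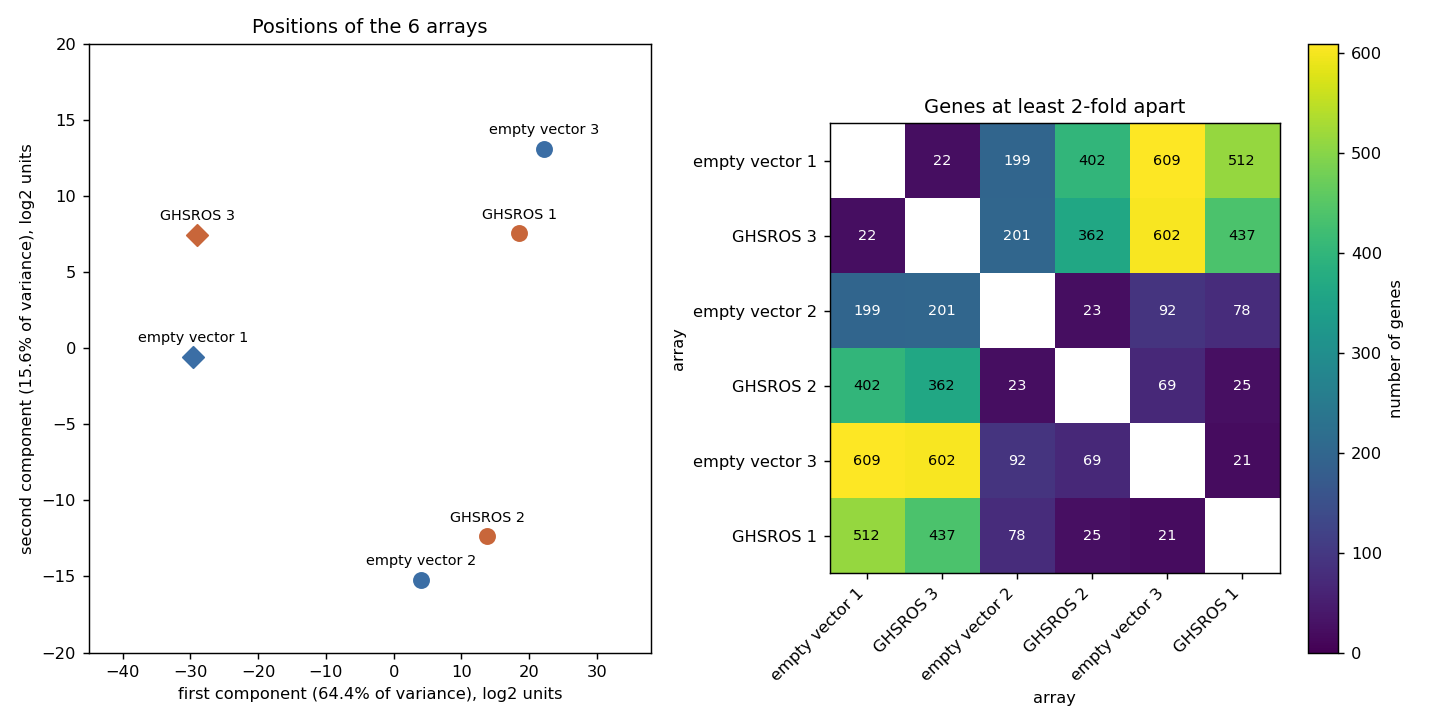
Left, the 6 arrays on the first and second principal components of 18377 genes (log2 units; blue, empty vector; orange, GHSROS; diamonds, the pair). Right, the number of genes at least 2-fold apart for each pair of arrays: 22 between the arrays of the pair, and 199 to 609 between either of them and the other 4.

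For each gene the difference of the pair was taken within each vector, so that the vector cancels: empty-vector array 1 minus the mean of empty-vector arrays 2 and 3, and GHSROS array 3 minus the mean of GHSROS arrays 1 and 2. Both differences had the same sign for 70.9% of genes, and 0 genes differed at least 1.5-fold in opposite directions. At least 2-fold in both vectors, 153 genes were higher on the pair, 0.833% of the genes measured, and 79 were lower, 0.43%. With the empty vector alone 210 genes were higher and 117 lower by that fold, and with GHSROS alone 219 and 140. Without empty-vector array 3, the array farthest from the pair, the counts were 100 higher and 49 lower, and against the nearest other array of the vector, in place of the mean, they were 90 and 39. Both arrays of the pair lay above all the other 4 for 3475 genes, 18.9% of those measured, and below all 4 for 3736, 20.3%. These shares are the background against which each gene list below is read, and since the pair was chosen on the same values, nothing further is read from them.

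**Figure D2:**
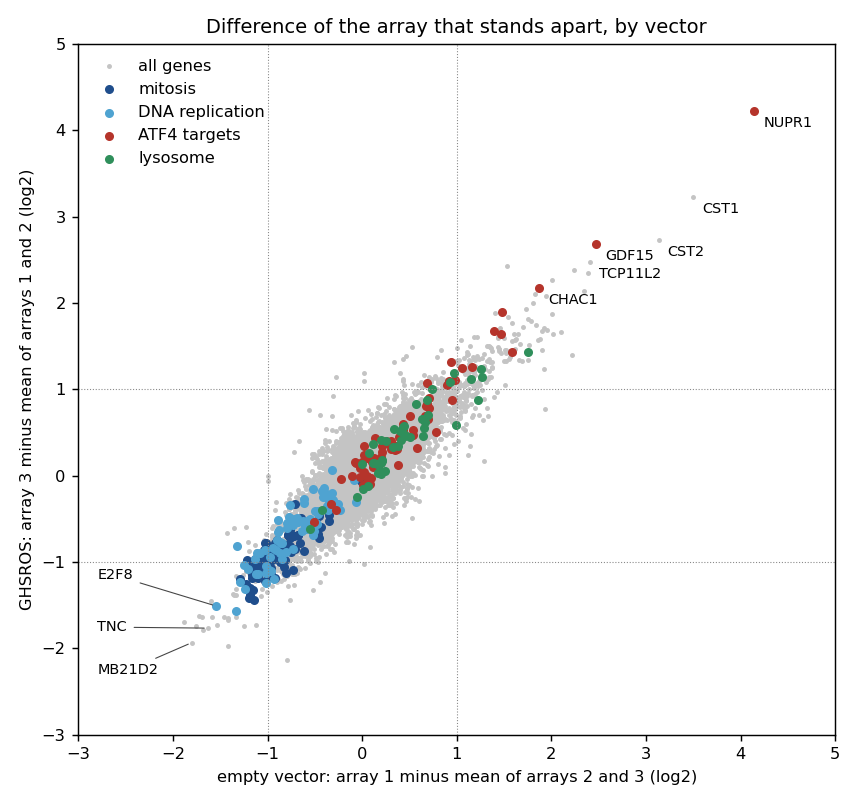
Each point is 1 gene: the log2 difference of the pair's array from the mean of the other arrays of its vector, with the empty vector on the x axis and with GHSROS on the y axis; dotted lines mark 2-fold. Mitosis and replication genes lie low in both vectors, ATF4 and lysosome genes high, and NUPR1 lies farthest out at 4.15 and 4.22.

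The 6 genes that mark the pair were 4 high genes and 2 low ones. NUPR1, a small stress-induced chromatin protein, had log2 levels of 10.82 and 10.93 on empty-vector array 1 and GHSROS array 3, against 6.74 and 6.61 on empty-vector arrays 2 and 3 and 6.79 and 6.62 on GHSROS arrays 1 and 2. The other 4 arrays were almost level for NUPR1, and the pair was 17.7 times higher with the empty vector and 18.7 times higher with GHSROS. GDF15, a secreted stress cytokine of the TGF-beta family, had log2 levels of 11.83 and 12.20 on the pair, with 9.82 and 8.89 on arrays 2 and 3 of the empty vector and 9.57 and 9.47 on arrays 1 and 2 of GHSROS. CST1, a secreted inhibitor of cysteine proteases, was at 13.20 and 13.01 on the pair. Its log2 levels on the other arrays were 10.81 and 8.61 with the empty vector and 8.99 and 10.56 with GHSROS, so the arrays numbered 2 lay between the pair and the rest. CHAC1, an enzyme that degrades glutathione and is a CHOP and ATF4 target, showed the same order, with log2 levels of 11.06 and 10.98 on the pair, 9.97 and 8.39 elsewhere with the empty vector and 8.45 and 9.15 elsewhere with GHSROS.

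E2F8, an E2F family repressor that is itself made in S phase, had log2 levels of 7.69 and 7.74 on the pair, compared with 8.96 and 9.51 for the rest of the empty-vector arrays and 9.40 and 9.09 for the rest with GHSROS. That is 2.92-fold lower with the empty vector and 2.85-fold lower with GHSROS. TNC, the matrix glycoprotein tenascin C, was at 9.08 and 8.92 on the pair, where the remaining empty-vector arrays read 10.86 and 10.55 and the remaining GHSROS arrays 10.42 and 10.94. For none of the 6 markers did the pair overlap the other 4 arrays.

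**Figure D3:**
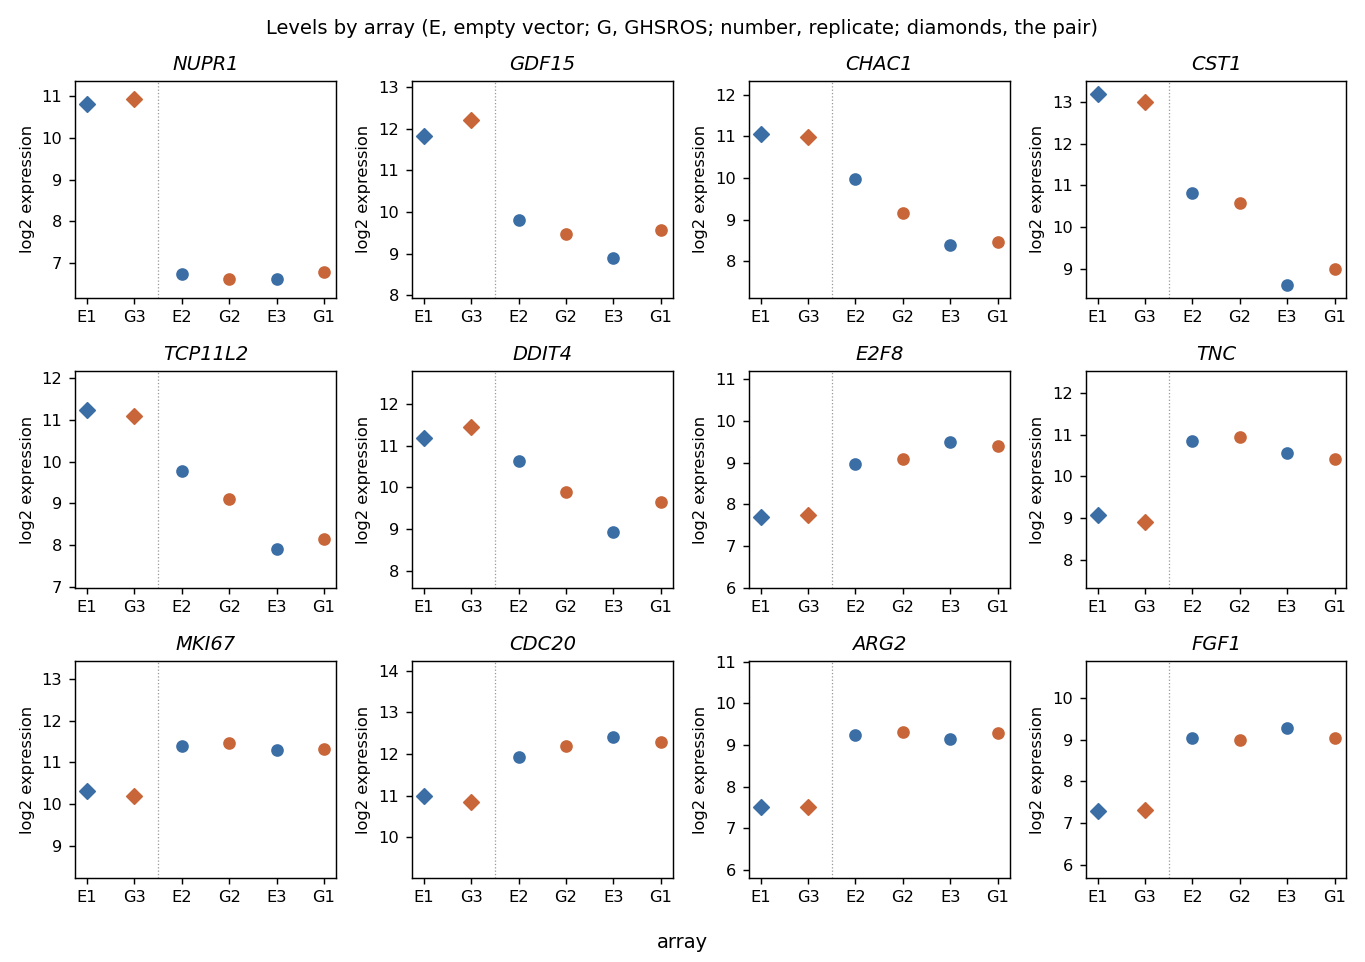
Log2 levels of 12 genes on each array (E, empty vector; G, GHSROS; the number is the replicate; diamonds, the pair), with the same span of log2 units in every panel. NUPR1, ARG2 and FGF1 form a step between the pair and the other 4, while CHAC1, CST1, TCP11L2 and DDIT4 fall from the pair over the arrays numbered 2 to the rest.

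Genes of mitosis were lower on the pair almost throughout. Of 79 measured members, 77 were lower on both arrays of the pair than on all other 4, against 20.3% of all genes, and 19 were at least 2-fold lower in both vectors. The median log2 difference was -0.92 with the empty vector and -0.93 with GHSROS, where the medians over all genes were -0.02 and 0.03. CDC25B and WEE1, a phosphatase that activates CDK1 and a kinase that restrains it, were the members that overlapped. In RNA from a whole culture, fewer cells in a phase of the cycle and less RNA of a gene per cell cannot be told apart.

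Among regulators of mitosis, CDC20, the activator of the anaphase-promoting complex, had log2 levels of 10.98 and 10.86 on the pair, with 11.94 and 12.40 on arrays 2 and 3 of the empty vector and 12.28 and 12.20 on arrays 1 and 2 of GHSROS. MKI67, which encodes the proliferation antigen Ki-67, was at 10.32 and 10.18 on the pair and between 11.31 and 11.48 on the other 4. FOXM1, the transcription factor of mitotic genes, was named after its values were seen: it was at 10.32 and 10.51 on the pair and between 11.36 and 11.59 on the other 4. All 3 were thus at or beyond 2-fold lower on the pair in both vectors.

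Spindle, kinetochore and cytokinesis genes followed, with 50 of 50 below all other 4 arrays. KIF20B, a kinesin of cytokinesis, was 2.29-fold lower with the empty vector and 2.66-fold lower with GHSROS. KIF14 and KIF20A, kinesins of the midbody and central spindle, were lower by 2.27-fold and 2.46-fold and by 2.35-fold and 2.38-fold. BUB1B, the checkpoint kinase-like protein BUBR1, had log2 levels of 9.55 and 9.62 on the pair and between 10.58 and 10.80 on the other 4. Cyclins and kinases of mitosis moved less as a group, with 16 of 18 below all other 4 arrays and 2 of 18 at least 2-fold lower. CCNB2, a B-type cyclin, was 2.19-fold lower with the empty vector and 1.99-fold lower with GHSROS.

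Genes of DNA replication were lower as well, by less with GHSROS than with the empty vector in the median, a difference that was not tested. Of 77 measured members, 73 lay below all other 4 arrays on both arrays of the pair, 11 were at least 2-fold lower in both vectors and 0 were 2-fold higher. The median log2 differences were -0.72 and -0.57. The members that overlapped were CDT1, SLBP, E2F2 and E2F7, genes of origin licensing, histone mRNA binding and the E2F family.

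CDC25A, the phosphatase that opens S phase, had log2 levels of 7.75 and 7.71 on the pair, compared with 8.72 and 9.44 for the rest of the empty-vector arrays and 9.41 and 9.15 for the rest with GHSROS. MCM10, which loads polymerase at the origin, was 2.38-fold and 2.04-fold lower, and GINS4, a subunit of the replicative helicase, was 2.15-fold and 2.19-fold lower. CLSPN, the checkpoint mediator claspin, was at 8.20 and 8.31 on the pair and between 9.24 and 9.73 on the other 4. The helicase BLM and the recombinase partner RAD54L differed by -1.02 and -1.13 and by -1.12 and -1.14 on the log2 scale. RRM2, the ribonucleotide reductase subunit that supplies deoxynucleotides, had a larger difference with the empty vector (-1.32) than with GHSROS (-0.81), and E2F1, the activating factor of the group, was at 9.62 and 9.98 on the pair against 10.04 to 10.25 on the other 4.

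Histone genes, which are transcribed in S phase, were lower by little: 23 of 48 lay below all other 4 arrays, with median log2 differences of -0.23 and -0.19, and 0 were 2-fold lower in both vectors. H2AC4 had log2 differences of -1.04 and -0.75. Histone transcripts can be shared among near-identical copies, so values of single histone genes are uncertain. H2BC21 was the 1 member above all other 4 arrays.

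The promoters of cell cycle genes were searched for the letters that their regulators are known to bind, since the mitosis and replication genes moved together on the pair. Promoters came from RefSeq (build GRCh38.p14, 250 bases before to 50 after the start) for 14210 of the measured genes, and both strands were searched. The cell cycle homology region, TTTGAA, was in 42 of 66 promoters of the mitosis list, 63.6%, against 11.9% of all promoters and 18 of 63 promoters (28.6%) of the genes 2-fold lower on the pair. An E2F site in either of 2 forms, TTTGGCGC or TTTCCCGC, was in 24 of 66 promoters of the replication list, 36.4%, against 3.10% of all and 11.1% of the genes 2-fold lower. A list's own share does not depend on the arrays. The 63 lower genes are not a separate set, since 16 are members of the mitosis list and 7 of the replication list. In all, 13 motifs were searched, and the shares of others differed too. Among genes 2-fold lower, the cAMP response element was in 11.1% of promoters, against 2.65% of all, and the CCAAT box in 50.8%, against 36.3%. The AP-1 site, at 1.59% against 5.59%, and the TEAD site, at 6.35% against 11.6%, went the other way. These shares were not tested. A match describes letters, not a bound site.

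The sequences show where these letters lie in mitosis genes that were 2-fold lower on the pair, with TTTGAA or its reverse complement in capitals, each read 5′ to 3′ along the gene. NCAPG, a condensin subunit, is shown from chr4:17810899-17810979 on the plus strand, and BUB1B from chr15:40161001-40161081 on the plus strand. CDCA3, a trigger of mitotic entry, is shown from chr12:6851267-6851334 on the minus strand and KIF14 from chr1:200620732-200620795 on the minus strand. These are the genome's reference letters, not reads of the cells.
NCAPG: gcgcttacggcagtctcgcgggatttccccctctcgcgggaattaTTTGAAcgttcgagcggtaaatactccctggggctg
BUB1B: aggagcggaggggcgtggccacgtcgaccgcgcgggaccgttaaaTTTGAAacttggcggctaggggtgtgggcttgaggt
CDCA3: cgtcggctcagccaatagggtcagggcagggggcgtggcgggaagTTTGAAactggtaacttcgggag
KIF14: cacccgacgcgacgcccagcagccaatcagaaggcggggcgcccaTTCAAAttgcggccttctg

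In 3 replication genes that were 2-fold lower on the pair, the capitals mark an E2F site in one of its forms. CDC25A is shown from chr3:48188424-48188491, CLSPN from chr1:35769959-35770013 and POLE2, a subunit of the leading-strand polymerase, from chr14:49688195-49688249, all on the minus strand of GRCh38.p14. POLE2 itself was 2.02-fold lower with the empty vector and 2.07-fold lower with GHSROS.
CDC25A: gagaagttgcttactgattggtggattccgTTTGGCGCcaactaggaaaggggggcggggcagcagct
CLSPN: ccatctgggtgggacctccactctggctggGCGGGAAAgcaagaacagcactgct
POLE2: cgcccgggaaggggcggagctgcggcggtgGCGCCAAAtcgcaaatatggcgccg

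Inhibitors of the cycle did not mirror these losses. CDKN1A, the p53 target p21, was at 9.22 and 9.17 on the pair and between 9.13 and 9.49 on the other 4, within their range. CDKN1B, the inhibitor p27 that rises in resting cells, was higher by log2 differences of 0.55 and 0.46 and did not overlap. Of 7 measured inhibitors, 1 lay above and 1 below all other 4 arrays. CDKN3 was the one below, at -0.82 and -1.07, a gene whose RNA follows mitosis. Among D cyclins, their kinases and the RB family, RBL2, the p130 subunit of the DREAM complex, was 1.63-fold and 1.56-fold higher, while RBL1, its p107 relative in cycling cells, was 1.41-fold and 1.49-fold lower. CDK6 was lower by 1.60-fold and 2.09-fold. Antiproliferative and quiescence genes lay above all other 4 arrays for 11 of 15 members, against 18.9% of all genes, and below them for 1. They were led by PDK4, a brake on pyruvate oxidation (1.76 and 1.35 on the log2 scale), and YPEL3, a growth-suppressive gene (1.10 and 1.11). MYC was at 12.25 and 12.10 on the pair and between 11.90 and 12.12 on the other 4, so its ranges met.

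Targets of ATF4 were higher. Of 69 measured members, 46 lay above all other 4 arrays on both arrays of the pair, against 18.9% of all genes, 9 were at least 2-fold higher in both vectors and 0 were 2-fold lower. The median log2 differences were 0.30 and 0.34. ALDH18A1, GOT1 and SLC7A1, in proline and aspartate synthesis and cationic amino acid uptake, lay below all other 4. The ATF4 transcript itself was at 10.33 and 10.14 on the pair, where the other 4 ran from 9.59 to 10.32, and ATF4 is known to be controlled mainly at translation.

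Stress effectors of the ATF4 list held GDF15 and CHAC1, already given, and NUPR1 was the 1 member past 2-fold among its transcription factors and feedback genes. DDIT4, an inhibitor of mTORC1 also induced by hypoxia, had log2 levels of 11.18 and 11.44 on the pair, where the remaining empty-vector arrays read 10.63 and 8.93 and the remaining GHSROS arrays 9.64 and 9.88, a graded pattern. KLHL24, an adaptor of a ubiquitin ligase, was 2.99-fold and 2.71-fold higher. DDIT3, which encodes CHOP, was higher by log2 differences of 0.71 and 0.90, at 9.19 and 9.17 on the pair and between 8.14 and 8.52 on the other 4. TRIB3, the pseudokinase that feeds back on ATF4, was 1.97-fold and 2.15-fold higher, and VLDLR, a lipoprotein receptor, was the last of the 9 past 2-fold.

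In amino acid synthesis, ASNS, asparagine synthetase, was at 9.79 and 9.95 on the pair, with 8.80 and 7.83 on arrays 2 and 3 of the empty vector and 7.92 and 8.19 on arrays 1 and 2 of GHSROS. PHGDH, the first enzyme of serine synthesis, was 2.24-fold and 2.39-fold higher, and PSAT1, the next enzyme, 1.61-fold and 2.10-fold. CTH, which makes cysteine, was 1.89-fold and 2.14-fold higher. The subgroup as a whole was mixed, with 6 of 13 members above and 2 below all other 4 arrays. Among transporters the glycine carrier SLC6A9 was 2.76-fold and 3.13-fold higher and the neutral amino acid carrier SLC1A4 1.91-fold and 2.49-fold. The tRNA synthetases and the tRNA export factor were uniform and small in size: 13 of 13 lay above all other 4 arrays, 0 were 2-fold higher, and the subgroup's median log2 differences were 0.30 and 0.32. WARS1, for tryptophan, was the first of them at 0.67 and 0.81.

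The composite C/EBP-ATF element that ATF4 is known to bind, TGATGNAA, was in 16 of 54 promoters of the ATF4 list, 29.6%, against 2.54% of all promoters. It was in 3 of 113 promoters of the genes 2-fold higher on the pair, 2.66%, close to the share of all promoters. In the 100 bases before the start alone, the ATF4 list had it in 7.41% and all promoters in 0.837%. Of the 9 members past 2-fold, 8 had a promoter in the table and the letters were found in CHAC1 and ASNS, which are shown with the match in capitals. CHAC1 is from chr15:40953232-40953299 on the plus strand, where the match is in reverse complement, and ASNS from chr7:97872439-97872506 on the minus strand.
CHAC1: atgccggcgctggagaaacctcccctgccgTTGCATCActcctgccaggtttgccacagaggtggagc
ASNS: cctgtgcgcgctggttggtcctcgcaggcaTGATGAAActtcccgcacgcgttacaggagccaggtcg

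Other stress programmes had list medians nearer 0 and members on both sides of the other 4 arrays. Among 42 genes of endoplasmic reticulum stress and folding, the median log2 difference was 0.05 in each vector, and DNAJB9, a co-chaperone induced by XBP1, was the single member at least 2-fold higher (1.19 and 1.24). Of the 42, 15 lay above and 6 below all other 4 arrays, with 5 of 7 sensors and factors above and, of 18 chaperones and folding enzymes, 3 above and 3 below. HSPA5, the chaperone BiP, differed by 0.23 and 0.29, and XBP1 by 0.60 and 0.43. Among 18 heat shock genes 8 lay below and 1 above all other 4 arrays, and the median differences were -0.11 and -0.12, with CHORDC1, an HSP90 partner, at -0.76 and -1.44. Among 27 p53 targets the medians were 0.01 and 0.02, a sign that turned under other scalings, with 9 members above and 10 below all other 4 arrays. GDF15, also an ATF4 target, was the p53-list member past 2-fold, and AEN, a nuclease, lay at -0.56 and -0.89. NRF2 targets had medians of 0.03 and 0.08, with 12 of 26 above and 5 below all other 4 arrays and with the exporter ABCC3 at 3.10-fold and 3.01-fold higher. Past 2-fold in both vectors were 9 members of the ATF4 list, 1 each of the endoplasmic reticulum, p53 and NRF2 lists and 0 heat shock genes, and the lists were not tested against each other.

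**Figure D4:**
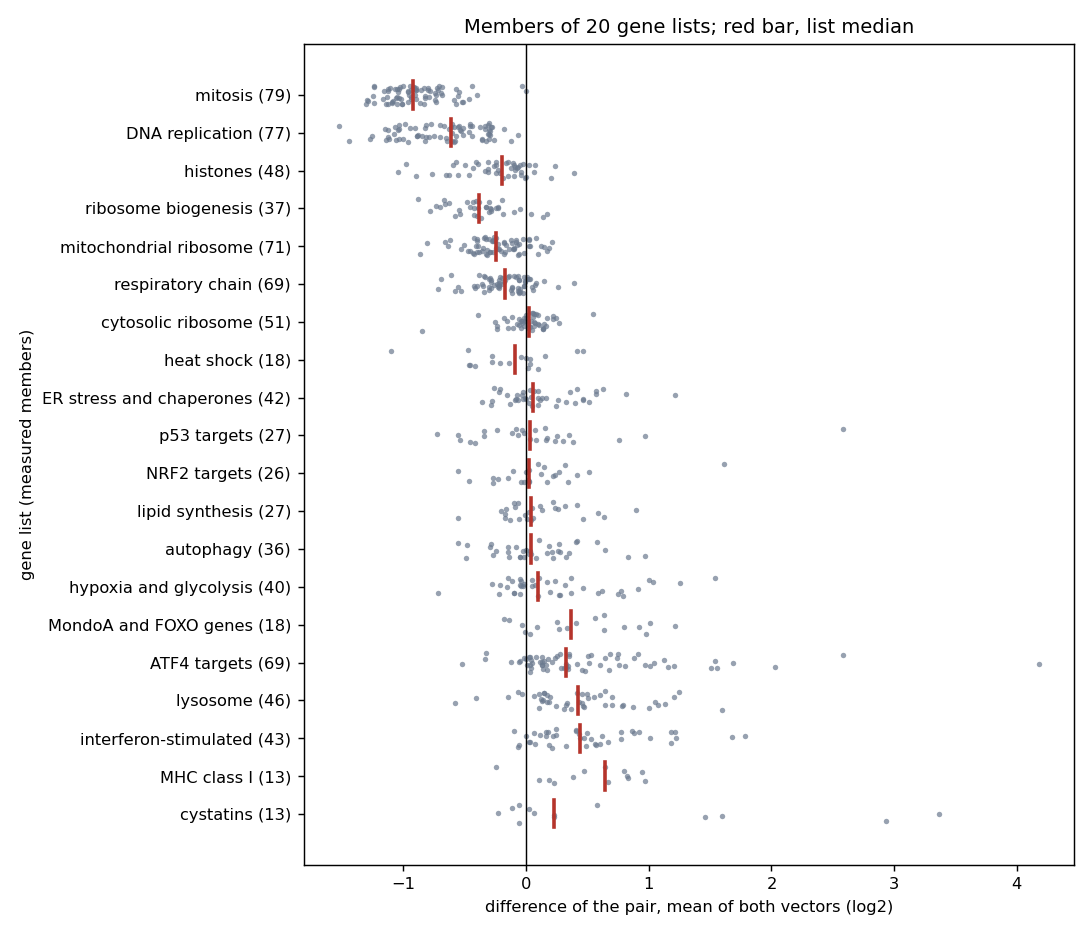
Each grey point is 1 gene of a list, placed at the mean of its log2 differences in both vectors, and the red bar is the list's median. Mitosis and DNA replication lie to the left of 0, with 77 of 79 and 73 of 77 members below all other 4 arrays, and the ATF4, lysosome, interferon and MHC class I lists lie to the right.

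Nutrient and energy genes were described next. Lysosomal genes lay above all other 4 arrays for 31 of 46 members, against 18.9% of all genes, and below them for 3. Their median log2 differences were 0.39 and 0.43. Hydrolases and membrane proteins carried this, with 24 of 31 above all other 4 arrays, while the proton pump had 7 of 15. CTSO and CTSD, cathepsins, were 3.38-fold and 2.70-fold and 2.21-fold and 2.17-fold higher. ASAH1, acid ceramidase, had log2 levels of 11.81 and 11.85 on the pair and between 10.46 and 10.69 on the other 4. TPP1, a lysosomal peptidase, was 2.41-fold and 2.21-fold higher. GPNMB, a glycoprotein of lysosome-rich cells named after its values were seen, was at 7.23 and 6.77 on the pair and between 5.07 and 5.15 on the other 4. Among autophagy genes 13 of 36 lay above and 7 below all other 4 arrays, with medians of 0.02 and 0.10, and SQSTM1, the cargo receptor p62, was at 0.89 and 1.05. MITF, of the same list, was among those below, at -0.52 and -0.60.

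Genes that respond to glucose and FOXO factors lay above all other 4 arrays for 10 of 18 members and below them for 0. MLXIPL, the glucose sensor ChREBP, was 2.10-fold and 2.57-fold higher, and TXNIP, which limits glucose uptake, was at 13.49 and 13.57 on the pair and between 12.32 and 13.13 on the other 4. HIF targets were above all other 4 arrays for 11 of 20 members, and LOX, the collagen cross-linking enzyme, was 2.15-fold and 2.64-fold higher. Transport and glycolysis enzymes were split, with 5 of 20 above and 6 of 20 below. HK2, hexokinase, was 1.52-fold and 1.79-fold lower.

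Genes that build ribosomes were lower, though by less than mitosis genes. Of 37 ribosome biogenesis genes, 29 lay below all other 4 arrays and 0 above, with median log2 differences of -0.32 and -0.42. UTP20, of the small-subunit processome, differed by -0.77 and -0.99. ODC1, the polyamine enzyme counted here as a MYC-driven gene, differed by -0.73 and -0.74. Mitochondrial ribosomal proteins were below for 39 of 71 and respiratory chain subunits for 36 of 69, with medians of -0.23 and -0.22 and of -0.19 and -0.14. Cytosolic ribosomal proteins did not move as a list: 10 of 51 lay above and 6 below, with medians of 0.00 and 0.04.

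Type 2 cystatins, secreted inhibitors of cathepsins, had 4 of 13 members past 2-fold. Of the 13, 7 lay above and 1 below all other 4 arrays, with median log2 differences of 0.08 and 0.20. CST2 had log2 levels of 10.95 and 10.55 on the pair, compared with 8.46 and 7.18 for the rest of the empty-vector arrays and 7.35 and 8.28 for the rest with GHSROS. CST4 and CST7 were 2.73-fold and 2.78-fold and 3.07-fold and 2.98-fold higher. CST1, CST2 and CST4 are near-identical neighbours on chromosome 20, so signal shared between their probe sets cannot be told apart from separate differences. Neighbouring genes past 2-fold otherwise formed only the pairs IFIT2 with IFIT3, IFITM10 with CTSD and HLA-DPA1 with HLA-DPB1, on chromosomes 10, 11 and 6.

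Interferon-stimulated genes lay above all other 4 arrays for 26 of 43 members and below for 0, with median log2 differences of 0.42 and 0.44. IFIT2, an antiviral RNA-binding protein, differed by 1.75 and 1.81 on the log2 scale, and BST2, the virus tether tetherin, by 1.58 and 1.77. MHC class I genes had medians of 0.54 and 0.71, with 9 of 13 above and 1 below. B2M, the class I light chain, was at 12.51 and 12.55 on the pair and between 11.65 and 11.80 on the other 4. Among NF-kB targets 14 of 36 lay above and 2 below, with LCN2, an iron-siderophore binder, at 1.73 and 1.93 and CSF1, the macrophage growth factor, at 1.43 and 1.49. IL11, of the same list, was lower, at -1.21 and -0.77. TNFSF10, the death ligand TRAIL, was highest on the pair's array within each vector: it was at 9.72, 8.27 and 7.16 on empty-vector arrays 1, 2 and 3 and at 6.30, 6.53 and 8.28 on GHSROS arrays 1, 2 and 3.

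Other genes with large positive differences had varied roles. TCP11L2 was 5.29-fold and 5.57-fold higher, with log2 levels of 11.24 and 11.09 on the pair, 9.77 and 7.91 elsewhere with the empty vector and 8.14 and 9.10 elsewhere with GHSROS. SULT1C2, a sulfotransferase, was at 7.59 and 7.49 on the pair and between 5.03 and 5.40 on the other 4. ATP6V0D2, a tissue-restricted proton pump subunit, had log2 levels of 6.02 and 5.93 on the pair and 3.53 to 3.85 on the other 4, and no fold is given because no detection call was used here for levels this low. DHRS3, a retinal reductase, was 3.84-fold and 4.24-fold higher. ASS1, which makes arginine from citrulline, was 3.56-fold and 4.29-fold higher and complement C3 3.45-fold and 3.48-fold. IFITM10 differed by 2.38 and 2.35 on the log2 scale and PLAAT4, an acyltransferase, by 2.01 and 2.27. SLC37A2, a sugar-phosphate exchanger, was at 11.87 and 11.78 on the pair and between 9.59 and 10.54 on the other 4. In all, 9 genes, ATP6V0D2 among them, were at least 4-fold higher in both vectors and 0 were 4-fold lower.

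Most of the largest negative differences lay outside the cell cycle lists. MB21D2 had log2 levels of 7.39 and 7.30 on the pair, where the remaining empty-vector arrays read 8.91 and 9.48 and the remaining GHSROS arrays 9.27 and 9.20. FGF1, the acidic fibroblast growth factor, was 3.69-fold and 3.23-fold lower. ARG2, mitochondrial arginase, was at 7.51 on both arrays of the pair and between 9.15 and 9.31 on the other 4, a step of 3.22-fold and 3.46-fold. RPSAP52, a pseudogene transcript, FREM2, a basement membrane protein, and TAGLN3 were between 3.09-fold and 3.38-fold lower in each vector. On the pair RPSAP52 was at 5.69 and 5.82 and FREM2 at 5.89 and 6.01, below the array medians of 6.56 to 6.65. No detection call was used, so the folds of these 2 genes are uncertain. OXCT1, the enzyme of ketone body use, differed by -1.58 and -1.63 on the log2 scale. CCNA1, the germline A-type cyclin, differed by -1.60 and -1.45, DDIAS by -1.42 and -1.65, CENPW, a centromere protein, by -1.42 and -1.67, and the guidance cue SEMA3E by -1.42 and -1.97. SEMA3E was likewise below the array medians on the pair, at 6.12 and 5.30. Among YAP targets, 15 of 28 lay below all other 4 arrays, against 20.3% of all genes, and CCN2, connective tissue growth factor, was 1.81-fold and 2.04-fold lower.

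The 4 arrays outside the pair were not level for many of these genes. Empty-vector array 2 and GHSROS array 2 both lay between the pair and the remaining arrays for 92 of the 153 genes that were 2-fold higher, 60.1%, where 6.65% of all genes showed that order. The same held for 47 of the 79 lower genes, 59.5%, against 7.85% of all. This order requires the pair to lie beyond all other 4 arrays. Of the genes counted for their difference on the pair, 152 of the 153 higher and 79 of the 79 lower did so. Over all genes only 18.9% lay above and 20.3% below, so the shares over all genes are not a like base. NUPR1, GPNMB and PLAAT4 formed steps, with the 4 arrays spanning under 25% of the difference, as did 28 higher and 27 lower genes. SLCO4C1, an organic anion carrier named after its values were seen, was the most graded: 7.82 and 8.64 on the pair, 8.22 and 5.36 elsewhere with the empty vector and 6.67 and 8.44 elsewhere with GHSROS. It was the 1 gene of the 153 whose pair overlapped the other 4.

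A second probe set, where a gene had one, mostly repeated the difference. 15 other probe sets of 9 higher genes were on the array, of which 14 had the same direction and 12 were at least 2-fold higher. The 9 genes include HLA-DMA, HLA-DPA1 and HLA-DPB1, with 3 probe sets each. Whether probe sets of a gene share sequence was not checked, so they may not be separate measurements. For 4 lower genes there were 4, of which 4 had the same direction and 2 were at least 2-fold lower.

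Markers of other cells were read for their part in the pair. CD14, a co-receptor for lipopolysaccharide and a myeloid marker, was at 8.98 and 8.09 on the pair and between 6.56 and 6.96 on the other 4, and was the single one of 11 myeloid markers past 2-fold. The mean log2 level of that list was 6.25 and 6.17 on the pair and 5.84 to 5.99 on the other 4. The endothelial list of 9 had means of 7.61 and 7.71 against 7.08 to 7.35, with KDR and TIE1, receptor kinases, past 2-fold, while PECAM1 overlapped between pair and rest. Lymphocyte markers had means of 5.66 and 5.73 against 5.69 to 5.87, with the cytokine receptor IL7R lower by 2.52-fold and 2.48-fold and CD3E at 5.16 and 5.19 against 5.04 to 5.21. Fibroblast markers had means of 5.63 and 5.78 against 5.59 to 5.65, adipocyte markers 5.97 and 6.10 against 5.97 to 6.09, and keratinocyte markers 5.38 and 5.50 against 5.35 to 5.54. The part of other cells in the differences was not tested.

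Of 17 mesenchymal markers, 8 lay above and 2 below all other 4 arrays. VIM and CD44, mesenchymal markers of MDA-MB231, differed between the pair and the rest by -0.15 and -0.13 and by -0.04 and -0.02 on the log2 scale. CDH11, a mesenchymal cadherin, was higher by 1.92 and 1.71, and with LOX made up the 2 members past 2-fold. Among 19 luminal markers 6 lay above and 0 below all other 4 arrays, and ELF3, an epithelial factor, was 2.15-fold and 2.33-fold higher. The submitters gave an RNA integrity number above 8 as the criterion for all samples, with no value per sample. The medians of the arrays lay between 6.56 and 6.65.

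The vectors were compared across all 6 arrays, which is the one contrast that the choice of the pair did not use. No probe set is named for GHSROS here, so its overexpression could not be read, and GHSR had log2 levels of 5.82, 5.69 and 5.96 with the empty vector and 5.84, 5.68 and 5.93 with GHSROS. In limma 0 of 18377 genes (0%) passed an adjusted p of 0.05, while 325 had an unadjusted p under 0.05, 179 higher and 146 lower with GHSROS. That is fewer genes than an unadjusted threshold of 0.05 would pass on average if no gene differed. The precision rests on 3 arrays per vector. Because each vector holds 1 array of the pair, genes that mark the pair had wide errors in this comparison: GDF15 had a log2 fold change of 0.24 (SE 0.95) and CST1 of -0.02 (SE 1.35).

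With membership of the pair as a covariate, 5 genes passed in limma, 0.0272% of those tested. The covariate was chosen from the same values, so these p-values are too small. LOC645188 (log2 fold change -1.26, adjusted p = 0.0038), HLA-DPB1 (-0.99, adjusted p = 0.0118) and the zinc finger gene ZNF585B (-1.21, adjusted p = 0.0123) were lower with GHSROS, and the collagen chaperone FKBP10 (1.16) and SHISA3 (1.09) were higher, both with an adjusted p of 0.0431. HLA-DPB1, a beta chain of MHC class II, shows how the pair and the vector lie across each other. It was at 9.66, 8.58 and 8.57 on empty-vector arrays 1, 2 and 3 and at 7.57, 7.54 and 8.73 on GHSROS arrays 1, 2 and 3, so that the pair's array was the highest in each vector, GHSROS arrays 1 and 2 lay below all empty-vector arrays, and GHSROS array 3 lay below empty-vector array 1. With the pair as a covariate its standard error fell from 0.41 to 0.08.

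The size of the pair's difference was not equal in both vectors for every gene. IRF1, an interferon-induced transcription factor, was 1.44-fold higher with the empty vector and 2.81-fold higher with GHSROS. CDC26, a subunit of the anaphase-promoting complex, and H2AC15, a histone gene, had log2 differences of -0.99 and -1.02 with GHSROS, against -0.13 and 0.02 with the empty vector. C19orf33 was at -0.31 with the empty vector and 0.92 with GHSROS. For C19orf33 and H2AC15 the other 4 arrays spanned 1.64 and 1.13 log2 units, wider than the differences between vectors of 1.24 and -1.04. For IRF1 and CDC26 they spanned 0.68 and 0.33, narrower than differences of 0.96 and -0.85. With 1 array of the pair in each vector these differences between vectors could not be tested.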

How the data were processed

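RNA of 6 MDA-MB231 cultures was measured on 1-colour arrays, 3 per vector, with groups and replicate numbers read from the titles. Each deposited value is the log2 expression of a probe set, and the authors used RMA, per the submitters' processing notes. Its version and any filter are unstated in the sources used here. As it is usually run, RMA normalizes the arrays to each other, which removes a shift of most genes together. No further normalization or filter was applied, 0 values were missing, and arrays carry no read depth, so their number limits the precision.

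Of 28869 probe sets, 19310 had 1 gene symbol in the platform annotation, 1752 several and 7807 none there; the last 2 kinds were not named. The probe set with the highest mean was kept per gene, leaving 18377 genes. The pair, the 35 gene lists (1102 genes measured) and the tests were chosen with earlier results of these data known. The first principal component was computed on centred log2 values. Genes named are the 6 markers, the 15 with the largest common difference in each direction (the smaller of both within-vector differences), up to 4 per list role, the 5 per direction whose difference varied most between vectors, and 9 regulators; not all are printed, and a few others are marked in the text as chosen after their values were seen.

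The vectors were compared in R 4.3.3 with limma 3.58.1 (lmFit, eBayes, two-sided, Benjamini-Hochberg over all genes). Unless cultures were transfected and grown apart from each other, the p-values describe only how these samples spread, which may be technical. No 2 arrays held identical values. The test was tried on simulated data first. Promoters were taken from a RefSeq table of assembly GRCh38.p14, the first listed per gene, and the whole promoter was searched unless stated otherwise. The alternatives tried are given after the report.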

Additional observations from a re-analysis of the deposited data

Results flagged for a closer look

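Probe sets that the comparisons left out, because the platform annotation gives them several symbols or none, also differed on the pair. Among those with several symbols, 17 were at least 2-fold lower and 16 at least 2-fold higher on the pair in both vectors. Among those not listed, 7 were lower and 11 higher. The largest fall in both vectors was -2.60 and the largest rise 1.95 on the log2 scale. Of the lower probe sets with several symbols, 12 are shared among members of the keratin-associated protein family, with log2 differences from -2.60 to -1.05, and 4 among FAM genes, from -1.59 to -1.39. Of the higher ones, 5 are shared among CNTNAP genes, from 1.18 to 1.66, and 6 among HLA genes, from 1.00 to 1.11. Some keratin-associated and CNTNAP probe sets, those with the largest fall among them, held values identical to another's on every array. The counts of 12 and 5 therefore include repeats. No single gene can be named from these probe sets, and their differences are descriptions without a test.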

How the results depend on the processing

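The pair kept its place on the first component under each alternative tried, with a gap of 60.0% to 81.3% of the range as each array was left out, the highest without empty-vector array 2. Genes at least 2-fold higher numbered 548 at 1.5-fold, 27 at 3-fold and 90 against the nearest other array, and genes lower 487, 7 and 39. Leaving out each of the other 4 arrays gave 100 to 184 higher and 49 to 101 lower, both lowest without empty-vector array 3. Under quantile normalization 146 of the 153 higher and 73 of the 79 lower genes were shared with the main counts. The median of the p53 list turned to -0.0173 under quantile normalization, to -0.0166 under median centring and to -0.0104 without empty-vector array 3 (range -0.0104 to 0.0504 over arrays left out). Of the other list medians and alternatives, 253 moved by less than the spread between arrays and 23 by more. Motif shares moved in 9 of 15 cases when only the 100 bases before the start were searched. The cases cover the ATF4 element, the cell cycle homology region and the E2F sites. That window lies within the promoter, so a share could only stay or fall. For the cell cycle homology region, the share of all promoters fell from 11.9% to 3.22%. For the vectors, limma called 0 genes under each alternative but 1, the pair as a covariate, which called 5. With the replicate number as a block, limma called 0 genes, and 223 had an unadjusted p under 0.05 beside 325 without it. Deviations of same-numbered arrays from the mean of their vector correlated at -0.71, 0.50 and -0.67 over genes. Empty-vector arrays 1, 2 and 3 correlated best with GHSROS arrays 3 (0.83), 2 (0.50) and 1 (0.74). Empty-vector array 1 and GHSROS array 3 were picked for deviating alike, and deviations within a vector cancel out. These correlations thus largely repeat that choice, and no pairing of the arrays is read from them. The labels do not say whether the numbers of both vectors run in one order, so the block may not follow what arrays share, and no fit with crossed numbers was run. Leaving out an array of the pair leaves 1 vector and gave no count. The cause of these shifts was not tested.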
